A study of Mus musculus with 4 samples.

Results

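The microtubule motors of the mouse trigeminal ganglion, where the sensory neurons of the face have their cell bodies, were described by the transcripts of their subunits. The members were all rows of the deposited expression table whose gene symbol names a numbered kinesin (Kif), a kinesin light chain (Klc1 to Klc4), a chain of cytoplasmic dynein (Dync1, Dync2 and Dynl genes) or one of the dynactin subunits Dctn1 to Dctn6. There were 65 members among 56035 gene rows. The study compared 2 libraries from mice with the K823R allele of Trpv1, the heat- and capsaicin-gated channel of nociceptors, with 2 libraries from wild-type (WT) littermates. The genotype label calls the first group transgenic, and the protocol calls it a knock-in. No driver that limits the allele to a cell type is named. All libraries came from male C57BL/6 mice of 8 weeks. The protocol names pairs of ganglia, but the number of animals behind a library is not given in the sources used here, so p-values measure the spread between these libraries, which may be technical. Values are TPM, a transcript level that is scaled for transcript length and sums to one fixed total in each library.

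Kinesins walk along microtubules and most carry cargo towards the plus end, which in an axon points away from the cell body. Cytoplasmic dynein-1 carries cargo the other way, back to the soma, and needs the dynactin complex and an adaptor for long runs. In sensory neurons, whose axons are very long, these motors move mitochondria, synaptic vesicle precursors, neurofilaments and signalling endosomes. A separate set of kinesins builds the mitotic spindle, and dynein-2 works inside cilia.

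The libraries listed 21838 to 22119 genes above 0, and TPM keeps no read depth. Of 15 sensory neuron markers, 15 were detected in every library, with summed levels of 19511 and 18864 TPM in K823R against 20179 and 17497 TPM in WT. Libraries differed in marker levels. In K823R replicate 1 the 8 fibroblast and meningeal markers summed to 2847 TPM, of which Ptgds made up 2374 TPM. Their sums were 911 TPM in K823R replicate 2 and 350 and 1082 TPM in WT. WT replicate 1 stood apart most in markers of central glia. Its 10 markers of oligodendrocytes and astrocytes, glia found in the brain, summed to 16.6 TPM with 3 of 10 at 0 (Mog, Olig2 and Opalin), against 259.8 and 312 TPM in K823R and 217 TPM in WT replicate 2. All 8 of these markers that were tested were higher in both K823R libraries than in both WT libraries, beside 19.4% of all genes. Their median log2 deviation from the gene mean was 0.68 and 0.87 in K823R and -1.96 and 0.41 in WT. Most of the gap thus lay in WT replicate 1. WT replicate 1 also had the lowest sums for other cell types. Myelinating Schwann cell markers summed to 14233 and 16958 TPM in K823R and to 11505 and 14306 TPM in WT. Macrophage markers summed to 89.1 and 117.6 TPM in K823R and to 53.7 and 85.8 TPM in WT. Endothelial markers summed to 90.6 and 81.6 TPM in K823R and to 67.0 and 86.7 TPM in WT. In whole ganglia, fewer cells of a type and less RNA per cell cannot be told apart.

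No motor gene passed the test between the genotypes. Of the 65 members, 49 had a mean of at least 1 TPM and were tested. By limma, 0 of the 49 passed at an adjusted p under 0.05, in a table where 1 of 15390 genes (0.0065%) did. At an unadjusted p under 0.05 there was 1 member, Dynlt3, against 4.76% of all genes. Adjusted p values of the members ran from 0.918 to 0.998. On the log2(TPM + 1) scale 30 members were higher and 19 lower in K823R, which is 61.2% higher beside 57.4% of all genes. The median log2 difference was 0.025 for members and 0.026 for all genes tested. With median-of-ratios scaling the split of the members was 26 higher and 23 lower, and with quantile normalization 27 higher and 22 lower. In 9 members both K823R libraries exceeded both WT libraries (18.4%, beside 19.4% of all genes), and in 6 members both were below (12.2%, beside 14.6%). These shares were near the background of all genes.

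The precision was highest for the abundant motors. The 36 members with a mean of at least 10 TPM had a median standard error (SE) of 0.0905 for a log2 difference and a median 95% interval half-width of 0.238. For 35 of the 36 the whole interval lay within 1.5-fold of no difference, and for 34 the difference itself was under 0.2 in size. The exception to the first count was Dynlt1b, described below with its near-identical copies. The 13 tested members between 1 and 10 TPM had wider intervals.

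**Figure D1:**
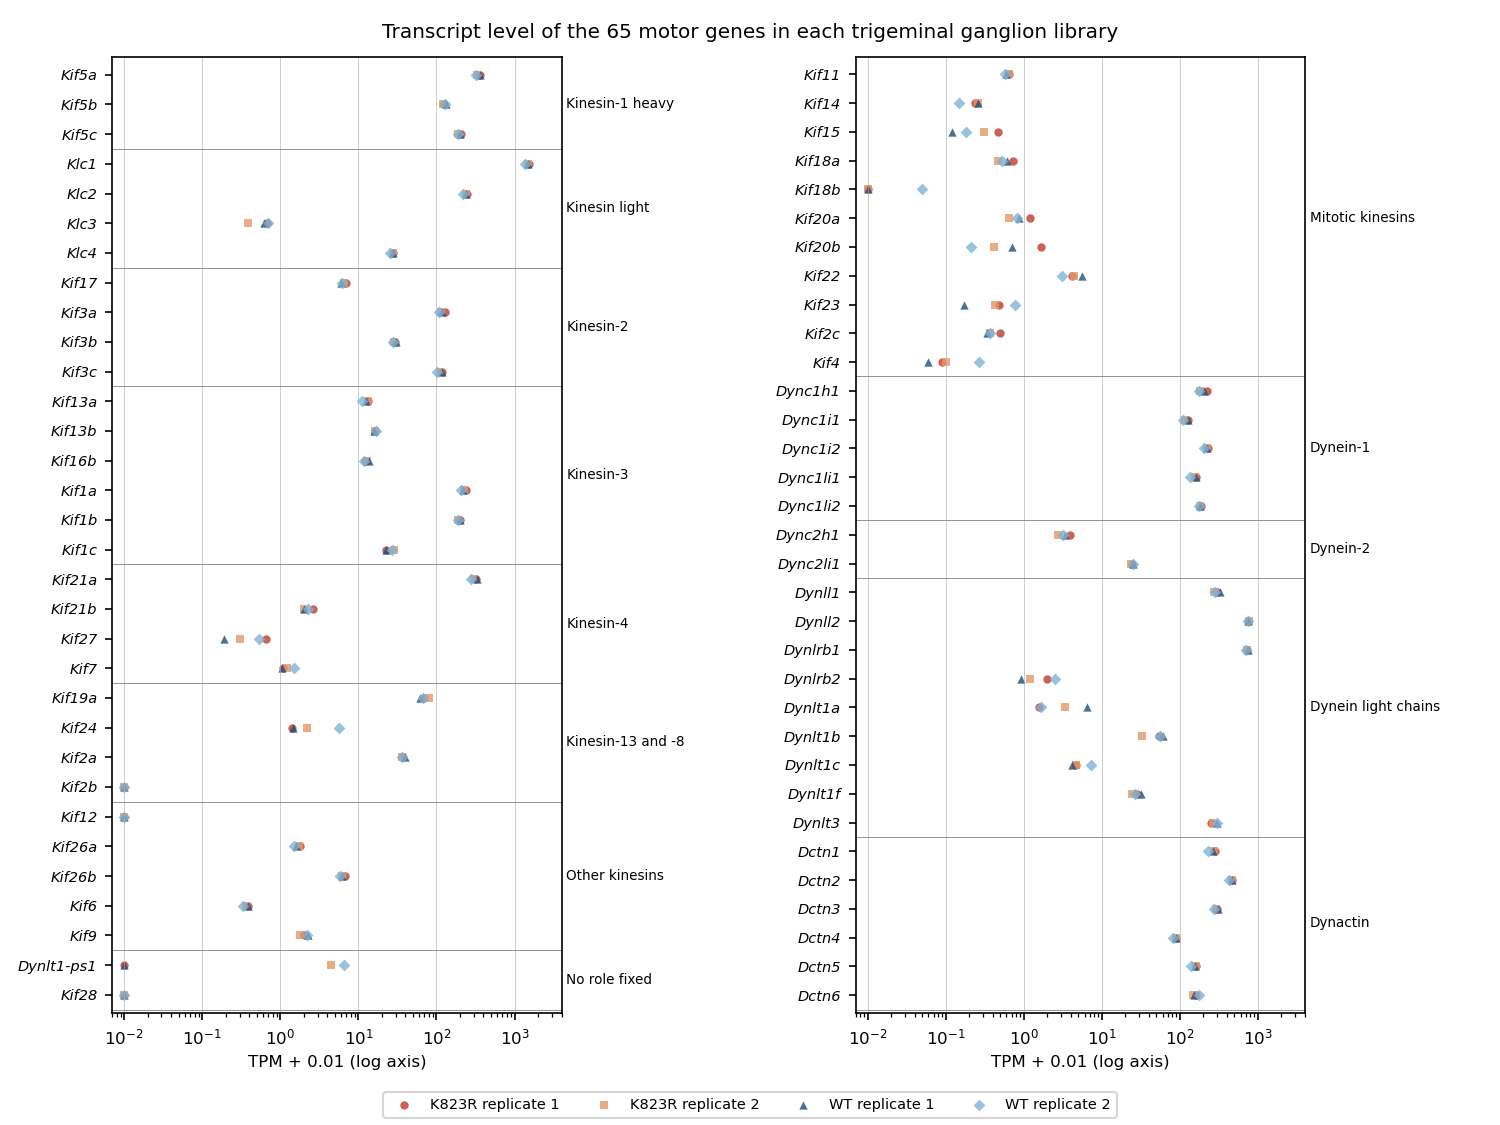
Level of each of the 65 motor genes, in TPM + 0.01 on a log axis, with one symbol for each of the 4 libraries and the genes grouped by role. Symbols of the 24 genes at 100 TPM or more nearly coincide, the mitotic kinesins other than Kif22 lie near or below 1 TPM, and the genes at the left edge are listed at 0.

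Kinesin-1, the main carrier of anterograde cargo, was among the most abundant motors. Kif5a, its neuronal heavy chain, stood at 364 and 334 TPM in K823R and at 366 and 316 TPM in WT. Kif5c, the other heavy chain enriched in neurons, stood at 203 and 189.5 TPM in K823R and at 199.9 and 186 TPM in WT. For both genes the libraries of the groups overlapped, and the log2 differences were 0.04 (SE 0.10) and 0.03 (SE 0.08). Each changed sign without K823R replicate 1 and without WT replicate 2. Kif5b, the heavy chain made in most tissues, stood at 124 and 120.4 TPM in K823R and at 134 and 129 TPM in WT. Both K823R libraries were the lower ones, and the log2 difference was -0.11 (SE 0.07, 95% interval -0.29 to 0.07; limma adjusted p = 0.918).

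Light chains link kinesin-1 to cargo. Klc1 was the most abundant member and ranked 68 among all gene rows by mean level. It stood at 1509 and 1470.5 TPM in K823R and at 1499 and 1347 TPM in WT. WT replicate 2 was the low library, the groups overlapped, and without that library the log2 difference of 0.07 (SE 0.08) became -0.0092. Klc2 stood at 245 and 236 TPM in K823R and at 240.3 and 216 TPM in WT, and the groups overlapped (log2 difference 0.08, SE 0.08). Klc4 averaged 27.7 ± 0.304 TPM in K823R and 26.6 ± 1.72 TPM in WT (SD, n = 2 each). Klc3 was below 1 TPM in every library and was not tested.

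The balance of paralogs within each subunit class varied little between libraries. Kif5a made up 52.7% and 51.9% of the summed heavy-chain TPM in K823R, against 52.2% and 50.1% in WT. The share of Kif5b was 17.9% and 18.7% in K823R, against 19.2% and 20.4% in WT. The groups did not overlap for Kif5b, and its difference of -1.52 percentage points stood beside a pooled SD of 0.727 points. Nor did they overlap for Kif3b within kinesin-2 (10.7% and 11.1% in K823R, 11.3% and 11.5% in WT). For Klc2 they did not either, by a small margin (13.77% and 13.63% in K823R, 13.59% and 13.61% in WT). Klc1 held 84.7% of light-chain TPM in both K823R libraries, against 84.8% and 84.7% in WT. Summed light chains over summed heavy chains gave ratios of 2.58 and 2.69 in K823R and of 2.53 and 2.52 in WT. Both K823R ratios were thus the higher ones. With 2 libraries against 2, an exact permutation test cannot give a p under 0.333, so shares and ratios were not tested.

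**Figure D2:**
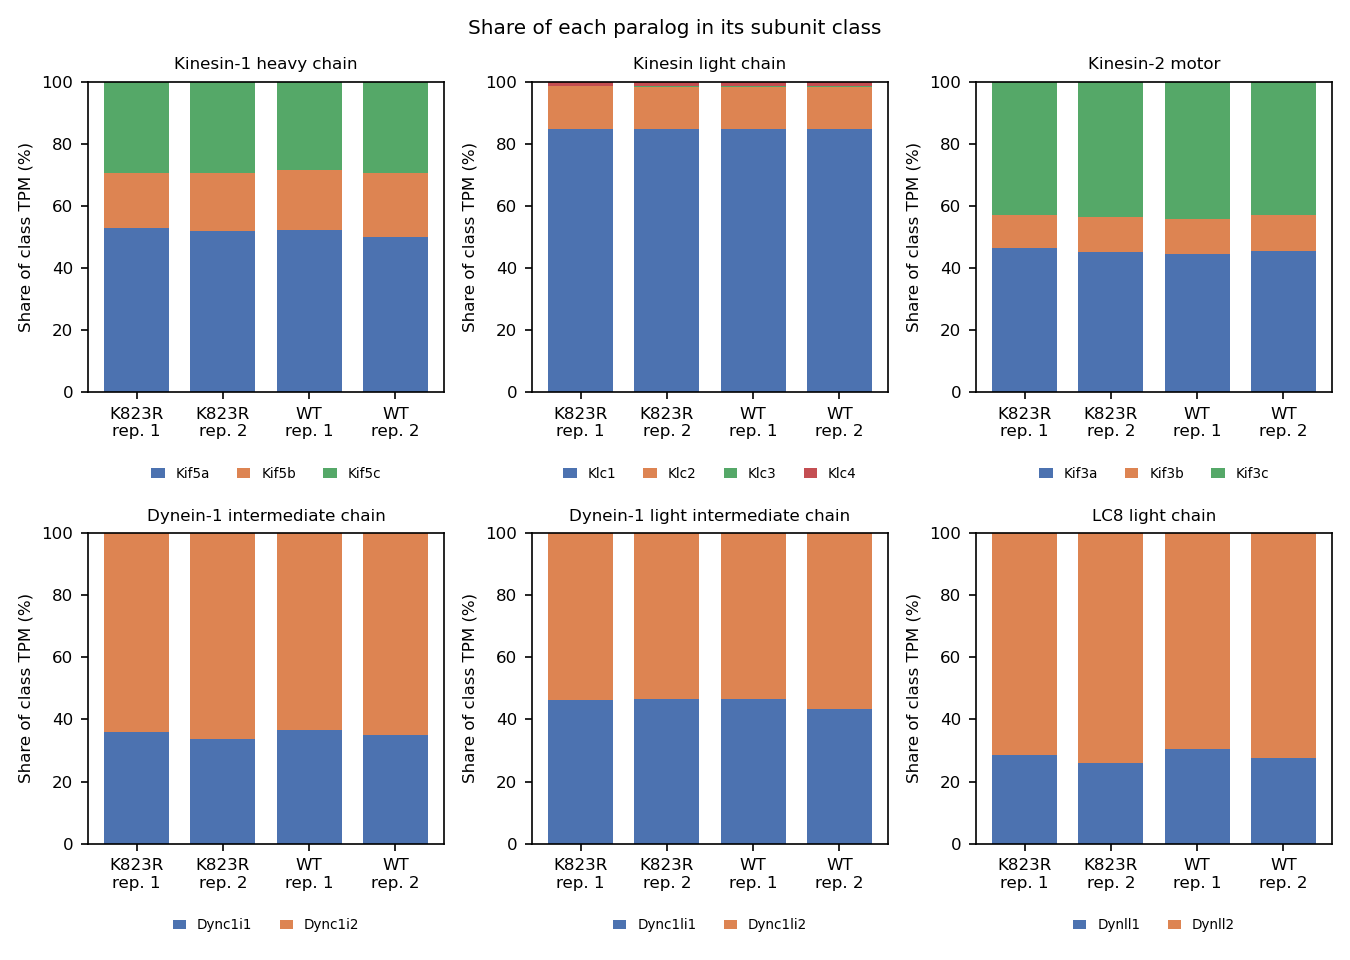
Share of each paralog in the summed TPM of its subunit class (%, stacked bars) in each of the 4 libraries, K823R on the left and WT on the right. The bars of a class differ by a few percentage points at most, for example Klc1 at 84.7% to 84.8% in every library.

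Kinesin-2 carries vesicles and also drives transport within cilia. Kif3a, the shared motor subunit, stood at 128 and 116 TPM in K823R and at 119 and 109 TPM in WT. Its partner Kif3b was at 29.5 and 28.4 TPM in K823R and at 30.3 and 27.4 TPM in WT. The alternative partner Kif3c, enriched in neurons, was at 119 and 112 TPM in K823R and at 119 and 103 TPM in WT. The groups overlapped for all 3 genes, with log2 differences of 0.09 (SE 0.09), 0.01 (SE 0.09) and 0.06 (SE 0.10), in the order named. The sign for Kif3b turned under both other scalings of the libraries, and that for Kif3c turned without WT replicate 2. Exons of Kif3c share 2617 bases with 1110002L01Rik on the opposite strand, and without a stated strand setting their reads cannot be told apart. Kif17, the homodimeric kinesin-2, was scarcer, with 7.01 and 6.58 TPM in K823R against 6.06 and 6.09 TPM in WT. Both K823R libraries were the higher ones (log2 difference 0.14, SE 0.12; limma adjusted p = 0.919).

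Kinesin-3 motors carry synaptic vesicle precursors and dense-core vesicles. Kif1a, the neuronal motor of this family, stood at 241 and 225 TPM in K823R and at 218 and 204 TPM in WT. The groups did not overlap, and the log2 difference was 0.14 (SE 0.08, 95% interval -0.06 to 0.34; limma adjusted p = 0.918). Kif1b, which moves mitochondria or vesicle precursors depending on its isoform, stood at 203 and 188 TPM in K823R and at 202 and 188 TPM in WT. Its values overlapped, the log2 difference was 0.00083 (SE 0.08), and it was -0.024 with median-of-ratios scaling and -0.012 with quantile normalization. Kif13a, a carrier of endosomal cargo, stood at 13.2 TPM in both K823R libraries and at 12.4 and 11.1 TPM in WT (log2 difference 0.16, SE 0.11; limma adjusted p = 0.918). The K823R values were thus both above the WT values. Kif1c, Kif13b and Kif16b, other vesicle and endosome carriers, had means of 25.6, 16.4 and 12.4 TPM in K823R and of 24.7, 16.4 and 12.8 TPM in WT, and their groups overlapped. Of the 6 kinesin-3 genes tested, 4 were higher in K823R and 2 lower (median log2 difference 0.023), a split of 3 and 3 under both other scalings.

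In the kinesin-4 family 1 gene held most of the summed level, and among the motors that act on microtubule ends Kif19a and Kif2a did. Kif21a, a kinesin-4 motor that restrains microtubule growth, was at 316 and 302 TPM in K823R and at 330.3 and 279.5 TPM in WT, so the groups overlapped. Its relatives Kif21b and Kif7, a regulator of Hedgehog signalling in the primary cilium, had means of 2.29 and 1.14 TPM in K823R and of 2.12 and 1.25 TPM in WT. Kif2a, a kinesin-13 that takes microtubules apart and limits branch growth in neurons, stood at 36.3 and 36.1 TPM in K823R and at 39.7 and 36.4 TPM in WT. The K823R values were the lower ones by a margin smaller than the gap between the WT libraries, and 1229 exon bases overlap Dimt1 on the opposite strand.

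Kif19a had the largest positive difference among the tested members. It encodes a kinesin-8 that controls the length of motile cilia in mice, and it stood at 69.8 and 80.03 TPM in K823R and at 60.8 and 67.3 TPM in WT. The K823R values were both above the WT values, with a log2 difference of 0.22 (SE 0.11, 95% interval -0.05 to 0.50; limma adjusted p = 0.918). It was 0.12 to 0.32 when 1 library was left out. Motile cilia markers were scarce beside it. Their 12 genes summed to 35.3 and 37.4 TPM in K823R and to 33.3 and 29.0 TPM in WT, and Foxj1, a regulator of motile cilia, held 13.5 and 13.7 TPM in K823R against 11.5 and 9.39 TPM in WT. Dnaic2, a dynein arm chain of motile cilia, was at 2.85 and 3.15 TPM in K823R against 2.25 and 2.55 TPM in WT. The difference was positive for 5 of the 5 cilia markers tested (median log2 difference 0.17), beside 57.4% of all genes, and 0 passed the adjusted threshold. Of these 5 markers only Foxj1 and Dnaic2 had both K823R values above both WT values. For Ccdc39, Ccdc40 and Rsph1 the groups overlapped. The part of ciliated cells in the Kif19a difference was not tested.

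Kif24, a kinesin-13 that acts at centrioles, had the most negative difference and rested on one library. It was at 1.42 and 2.21 TPM in K823R and at 1.44 and 5.64 TPM in WT. WT replicate 2 was the high library, and the groups overlapped. The log2 difference was -0.53 (SE 0.52) and became 0.19 without WT replicate 2.

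**Figure D3:**
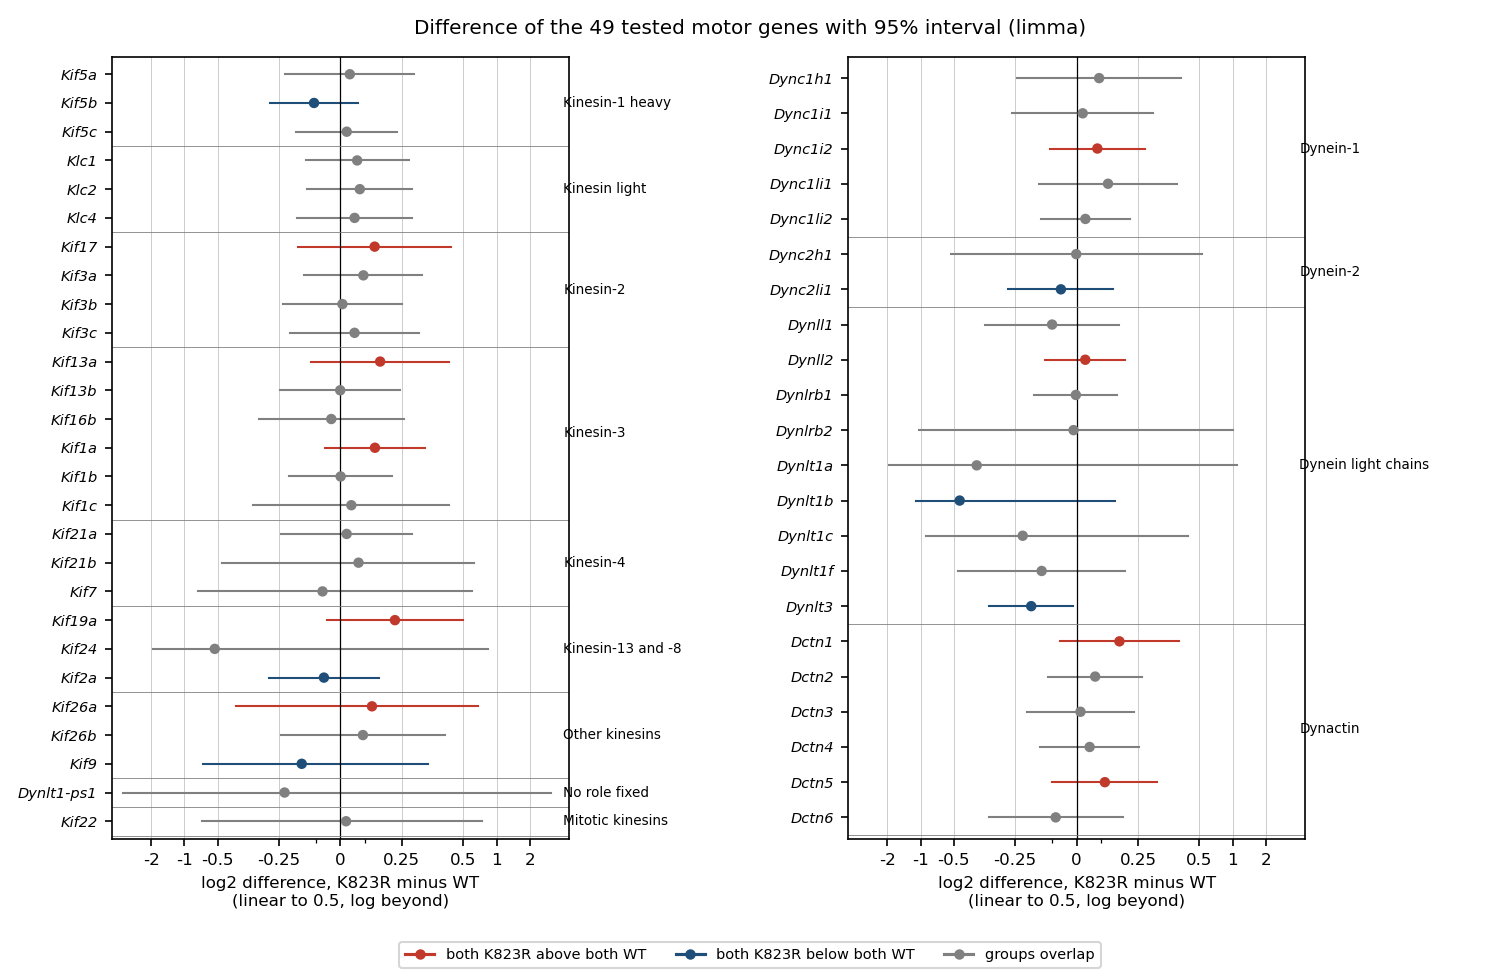
Difference in log2(TPM + 1), K823R minus WT, of the 49 tested motor genes with its 95% interval from limma, by role, on an axis that is linear to 0.5 and logarithmic beyond. The 9 genes whose K823R values both exceed the WT values are red, the 6 with both below are blue and the 34 with overlapping groups are grey, and the interval of Dynlt3 alone leaves out 0.

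Dynein-1, the retrograde motor, was abundant in every chain class. Dync1h1, the heavy chain with the motor domain, stood at 223 and 182 TPM in K823R and at 201 and 178 TPM in WT. The gap between the K823R libraries was wider than that between the group means, and without K823R replicate 1 the log2 difference of 0.09 (SE 0.13) became -0.053. Of the intermediate chains, which bind dynactin, the neuronal Dync1i1 stood at 128 and 115 TPM in K823R and at 129 and 110.2 TPM in WT. It overlapped between groups, with a log2 difference of 0.02 (SE 0.11) that was -0.00031 with median-of-ratios scaling and -0.00026 with quantile normalization. Dync1i2, made in most cells, stood at 227 and 225 TPM in K823R and at 222 and 205 TPM in WT. Its K823R libraries were both the higher, by little over WT replicate 1 (log2 difference 0.08, SE 0.07).

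The light intermediate chains attach dynein to its adaptors. Dync1li1 stood at 163 and 157 TPM in K823R and at 160.0 and 134 TPM in WT. Dync1li2 stood at 188 and 179 TPM in K823R and at 183 and 176 TPM in WT. Both overlapped between groups, with log2 differences of 0.13 (SE 0.11) and 0.04 (SE 0.07), in that order. Summed intermediate chains over the heavy chain gave ratios of 1.59 and 1.87 in K823R and of 1.75 and 1.77 in WT, so the K823R libraries lay on either side of WT. Dynein-2, the ciliary retrograde motor, was scarcer, with means of 3.31 TPM in K823R and 3.27 TPM in WT for its heavy chain Dync2h1. Its light intermediate chain Dync2li1 averaged 24.0 ± 0.424 TPM in K823R and 25.1 ± 0.276 TPM in WT (SD, n = 2 each).

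The light chains gave the lowest unadjusted p of the family. Dynlt3, a Tctex-type light chain on the X chromosome (GRCm38 chrX:9654267-9663003, minus strand), stood at 254 and 265 TPM in K823R and at 294 and 296 TPM in WT. Both K823R libraries lay below both WT libraries, and the WT values nearly coincided. The log2 difference was -0.18 (SE 0.065, 95% interval -0.36 to -0.01). It had an unadjusted limma p of 0.0389 and did not pass after adjustment (adjusted p = 0.918). It was -0.22 to -0.15 when 1 library was left out and kept its sign under all 11 alternatives.

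Dynlt1b, the related light chain, was lower in K823R by a wider margin that rested on one library. It stood at 53.3 and 32.6 TPM in K823R and at 60.9 and 56.1 TPM in WT. K823R replicate 2 was the low library, and the log2 difference of -0.48 (SE 0.24, 95% interval -1.11 to 0.16; limma adjusted p = 0.918) was -0.13 without it. Dynlt1f stood at 28.4 and 24.4 TPM in K823R and at 31.8 and 26.9 TPM in WT, and its groups overlapped (log2 difference -0.14, SE 0.13).

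Levels of the Dynlt1 genes cannot be read one by one, because they are near-identical copies. Dynlt1a, Dynlt1b, Dynlt1c and Dynlt1f lie on chromosome 17 (Dynlt1b at chr17:6430112-6436296, plus strand, and Dynlt1f at chr17:6646602-6655900, minus strand, in GRCm38). Dynlt1-ps1 is a processed pseudogene at chr6:135349408-135349749. In GENCODE M21 the coding region of 342 bases is the same in Dynlt1a, Dynlt1c and Dynlt1f, and the pseudogene matches it in full. Dynlt1b differs from it at 1 base, position 21 counted from the start codon. The first 50 coding bases are shown to make that base visible, with the base in which Dynlt1b differs in a capital, and the start of Dynlt3 follows with its differences from Dynlt1f in capitals. In the alignment bases 15 to 17 of Dynlt3, 3 capitals in a row, have no counterpart in Dynlt1f, so bases after them lie 3 places further right than their partners.
Dynlt1b: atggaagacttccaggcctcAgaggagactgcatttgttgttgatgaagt
Dynlt1f: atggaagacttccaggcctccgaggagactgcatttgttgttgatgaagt
Dynlt3: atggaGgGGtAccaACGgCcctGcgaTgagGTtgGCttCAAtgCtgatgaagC
A read within the coding region that misses the one capital fits all the Dynlt1 copies, while Dynlt3, at 61.9% identity to Dynlt1b over the coding region, stands apart from them. The scarce copies changed places between libraries. Dynlt1a was at 1.54 and 3.41 TPM in K823R and at 6.4 and 1.66 TPM in WT, and Dynlt1c had means of 4.64 TPM in K823R and 5.75 TPM in WT. Dynlt1-ps1 was listed at 0 in replicate 1 of each genotype and at 4.48 TPM in K823R replicate 2 and 6.51 TPM in WT replicate 2. Summed over the 5 rows, Dynlt1 stood at 87.9 and 69.6 TPM in K823R and at 103 and 98.4 TPM in WT. Both K823R sums were the lower, and the log2 ratio of the mean sums was -0.36, with values of -0.53 to -0.20 when 1 library was left out.

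The LC8 light chains Dynll1 and Dynll2 also serve myosin V and many other partners as a dimerization hub. Dynll1 stood at 299 and 271 TPM in K823R and at 329 and 284 TPM in WT, and the groups overlapped (log2 difference -0.10, SE 0.10). Dynll2 stood at 753 and 775 TPM in K823R and at 748 and 742 TPM in WT. Its K823R libraries were both the higher by a small margin (log2 difference 0.04, SE 0.06). Unlike the Dynlt1 copies, these paralogs differ at 51 of 270 coding bases, as the first 90 show, with the differing bases in capitals.
Dynll1: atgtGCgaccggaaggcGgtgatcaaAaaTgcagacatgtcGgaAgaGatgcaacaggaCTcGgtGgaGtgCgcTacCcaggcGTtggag
Dynll2: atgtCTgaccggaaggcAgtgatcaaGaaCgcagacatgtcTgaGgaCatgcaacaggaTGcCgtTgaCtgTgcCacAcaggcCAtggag
Dynll1 held 28.4% and 25.9% of the LC8 TPM in K823R, against 30.5% and 27.6% in WT. The roadblock light chain Dynlrb1 stood at 719 and 732 TPM in K823R and at 743 and 711 TPM in WT, with a log2 difference of -0.0032 (SE 0.06) that was 0.0078 with quantile normalization. Its paralog Dynlrb2 had means of 1.58 TPM in K823R and 1.70 TPM in WT. Among the 9 light-chain genes the difference was negative for 8 (median log2 difference -0.14), beside 6563 of all 15390 genes tested. It was negative for 7 with quantile normalization. Of the 8, Dynlrb1 and Dynlrb2 differed by only -0.0032 and -0.013, and 4 are the Dynlt1 copies that can share reads. The median was -0.026 without WT replicate 1 and -0.037 without K823R replicate 2.

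Dynactin recruits dynein to cargo and to microtubules. Dctn1, the p150-Glued arm that binds both dynein and microtubules (GRCm38 chr6:83165920-83200117, plus strand), stood at 285 and 272 TPM in K823R and at 264 and 230.4 TPM in WT. Both K823R libraries were the higher, and the log2 difference was 0.17 (SE 0.09, 95% interval -0.07 to 0.42; limma adjusted p = 0.918). It was 0.075 without WT replicate 2, the lowest library, and 0.27 without WT replicate 1. Dctn2, dynamitin, which holds the arm to the filament, stood at 469 and 459 TPM in K823R and at 459 and 422 TPM in WT, and the groups overlapped by a narrow margin (log2 difference 0.08, SE 0.07). Dctn3, its shoulder partner, stood at 296 and 288 TPM in K823R and at 306 and 273 TPM in WT. It overlapped too, and its log2 difference of 0.02 (SE 0.08) was -0.0095 with median-of-ratios scaling.

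Of the subunits at the pointed end of the dynactin filament, the 3 that are members showed no shared direction. Dctn4 stood at 89.7 and 88.6 TPM in K823R and at 89.3 and 82.7 TPM in WT. Dctn5 stood at 162 and 159 TPM in K823R and at 156 and 140.3 TPM in WT. Dctn6 stood at 162 and 147 TPM in K823R and at 152 and 176 TPM in WT. Of these 3, only Dctn5 had both K823R values above both WT values (log2 difference 0.11, SE 0.08; limma adjusted p = 0.918). The log2 difference of Dctn6 was -0.09 (SE 0.10) and became 0.018 without WT replicate 2.

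The mitotic kinesins were scarce in this tissue of non-dividing neurons. Of 11 such genes, Kif22, which moves chromosomes along the spindle, was the 1 tested, at 4.10 and 4.38 TPM in K823R against 5.58 and 3.04 TPM in WT. The groups overlapped. Kif11, the motor that pushes spindle poles apart, was at 0.63 and 0.64 TPM in K823R and at 0.58 and 0.56 TPM in WT. Kif4, a chromosome-arm motor, was at 0.08 and 0.09 TPM in K823R and at 0.05 and 0.26 TPM in WT, and Kif18b, which shortens spindle microtubules, was above 0 only in WT replicate 2, at 0.04 TPM. Kif20b had the highest single value among the untested members, with 1.67 and 0.41 TPM in K823R against 0.70 and 0.20 TPM in WT. Summed over the 11 genes, the level was 10.03 and 7.95 TPM in K823R and 9.22 and 6.86 TPM in WT. Of the 10 proliferation markers 3 were tested and 0 passed. Birc5, the survivin subunit of the chromosomal passenger complex, stood at 2.66 and 2.12 TPM in K823R and at 3.61 and 3.81 TPM in WT (log2 difference -0.48, SE 0.18; limma adjusted p = 0.918). Cdk1, the mitotic kinase, stood at 1.02 and 1.65 TPM in K823R and at 1.17 and 2.19 TPM in WT, and overlapped.

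Most promoters found for these scarce kinesins share a short element. Genes of the late cell cycle often carry a cell cycle genes homology region, with the letters TTTGAA, near the transcript start, where a repressor complex acts in resting cells. RefSeq promoters on GRCm38.p6, from 250 bases before to 50 after the start, were found for 49 members, with 56 promoters. They covered 10 of the 11 mitotic kinesins, with none for Kif20a. TTTGAA, searched on both strands, was present in 9 of the 10 mitotic kinesin promoters and in 17.9% of all 32851 promoters of the table. Only the Kif18a promoter among these 10 lacked the hexamer. It was present in 2 of 31 promoters (6.45%) of members at 10 TPM or more, those of Dctn1 and Kif1a. In members under 1 TPM that are not mitotic kinesins it was present in 1 of 5 promoters, that of Kif27. GGGCGG, a GC box, was present in 23 of those 31 promoters (74.2%), in 6 of the 10 mitotic kinesin promoters and in 35.7% of all promoters. A CCAAT box was present in 6 of the 10 mitotic kinesin promoters and in 37.4% of all promoters. The TATA element, with the letters TATAAA, was present in 1 of the 10 and in 13.6% of all promoters. The E-box with the letters CACGTG was present in 0 of the 10 and in 7.15% of all promoters. The variant hexamer with the letters TTCGAA was present in 0 of the 10 and in 1.56% of all promoters. A few longer elements were looked at as well and are not given. The elements were chosen after the levels were seen, a match is not a bound site, and the shares are descriptions with no test.

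In 7 of the mitotic kinesin promoters the hexamer lay within 40 bases before or 30 after the start. These windows are shown because they hold the matches nearest to the start. They read 5′ to 3′ on the strand of the gene, with each match in capitals as TTTGAA or its reverse complement TTCAAA.
Kif11, chr19:37376342-37376411, plus strand: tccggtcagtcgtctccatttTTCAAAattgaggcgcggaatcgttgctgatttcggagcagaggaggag
Kif15, chr9:122951041-122951110, plus strand: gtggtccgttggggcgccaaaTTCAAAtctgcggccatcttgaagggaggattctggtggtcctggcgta
Kif18b, chr11:102925095-102925164, minus strand: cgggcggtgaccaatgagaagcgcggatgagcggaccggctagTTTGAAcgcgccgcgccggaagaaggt
Kif20b, chr19:34922318-34922387, plus strand: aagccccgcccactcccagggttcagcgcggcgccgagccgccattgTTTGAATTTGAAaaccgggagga
Kif22, chr7:127042391-127042460, minus strand: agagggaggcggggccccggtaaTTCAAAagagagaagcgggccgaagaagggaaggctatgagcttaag
Kif23, chr9:61946770-61946839, minus strand: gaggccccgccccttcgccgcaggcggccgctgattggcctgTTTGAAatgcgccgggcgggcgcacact
Kif4, chrX:100626025-100626094, plus strand: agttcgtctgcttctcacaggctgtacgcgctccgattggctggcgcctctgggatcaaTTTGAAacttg
In Kif11, Kif15 and Kif22 the match began 17 to 19 bases before the start, and in Kif18b, Kif20b, Kif23 and Kif4 it began at bases 3 to 20 of the transcript. Kif20b carried 2 matches side by side, from bases 8 and 14. The transcripts behind these windows ran from 0 TPM for Kif18b to 5.58 TPM for Kif22.

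**Figure D4:**
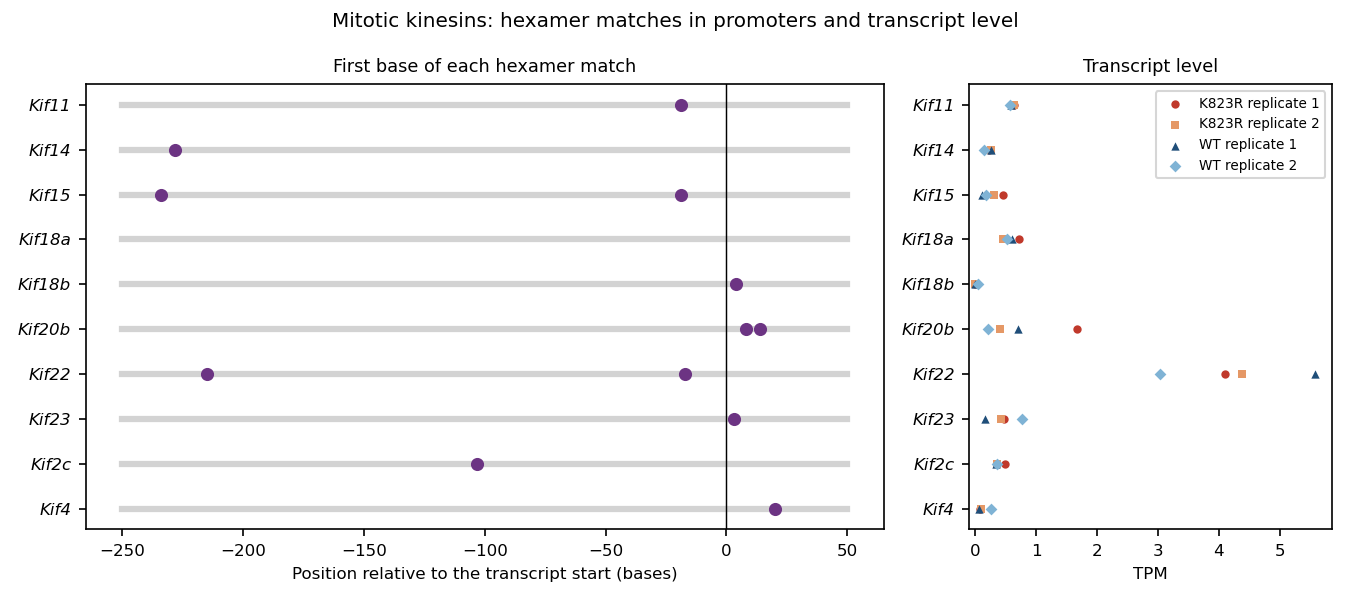
Left, position of each TTTGAA or TTCAAA match in the promoters of 10 mitotic kinesins, in bases from the transcript start, with grey lines for the stretch searched. Right, level of the same genes in TPM in each of the 4 libraries. Matches lie close to the start in 7 of the 10 promoters, and every gene but Kif22 is at or below 1.67 TPM.

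Members not tested were scarce by the rule on low values. Of the 16 members that were not tested the highest value in any library was 1.67 TPM, and Kif12, Kif28 and Kif2b were listed at 0 in every library. Among the tested members between 1 and 10 TPM Kif26b averaged 6.46 ± 0.502 TPM in K823R and 5.99 ± 0.156 TPM in WT (SD, n = 2 each). Kif9 and Kif26a were low in all libraries, with means of 1.89 and 1.76 TPM in K823R and of 2.21 and 1.53 TPM in WT. Their groups did not overlap, with log2 differences of -0.16 (SE 0.20) and 0.13 (SE 0.21).

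The adaptors, regulators and tracks of the motors did not pass the test either. Of 20 tested adaptors and regulators of dynein 12 were higher and 8 lower in K823R (median log2 difference 0.021), against 9 higher and 11 lower under both other scalings, and 0 passed by limma. Nin, ninein, an adaptor at centrosomes, stood at 7.51 and 7.68 TPM in K823R against 5.99 and 6.25 TPM in WT. Its relative Ninl stood at 1.64 and 1.12 TPM in K823R against 3.28 and 2.14 TPM in WT. The groups did not overlap for either gene, in opposite directions (log2 differences 0.27, SE 0.12, and -0.63, SE 0.27; limma adjusted p = 0.918 for both).

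Of 22 tested adaptors and regulators of kinesins 17 were higher and 5 lower in K823R (median log2 difference 0.060), and 0 passed. That is 77.3% higher, beside 57.4% of all genes. The share was 68.2% with median-of-ratios scaling and 72.7% with quantile normalization, beside 51.0% and 49.2% of all genes. Their summed levels overlapped, at 5663 and 5480 TPM in K823R and 5743 and 5106 TPM in WT. WT replicate 1 was thus the highest library and WT replicate 2 the lowest. In 3 of the 22 both K823R libraries exceeded both WT libraries, and in 1 both were below (beside 19.4% and 14.6% of all genes). Trak2, which ties kinesin-1 and dynein to mitochondria, stood at 39.3 and 37.7 TPM in K823R against 33.4 and 36.6 TPM in WT. Pcm1, a protein of centriolar satellites, stood at 15.7 and 14.8 TPM in K823R against 17.5 and 18.4 TPM in WT. Again neither overlapped, in opposite directions, and neither passed (limma adjusted p = 0.918 for both). Of 3 tested genes in the list of minus-end kinesins and Cenpe, 2 were higher and 1 lower in K823R, and 0 passed. Kifc2, a minus-end kinesin of neurons, stood at 24.9 and 22.9 TPM in K823R and at 20.8 and 21.6 TPM in WT, and Kifc3 at 23.8 and 23.9 TPM in K823R and at 22.7 and 22.5 TPM in WT. The K823R values were the higher ones for both.

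Tubulins form the tracks of the motors. Among 12 tubulins the difference was positive for 11 (median log2 difference 0.10), and 0 passed. That is 91.7% higher, beside 57.4% of all genes. The share was 83.3% with median-of-ratios scaling and 91.7% with quantile normalization, beside 51.0% and 49.2% of all genes. Summed tubulin levels overlapped between groups, at 11649 and 11143 TPM in K823R and 11572 and 9872 TPM in WT. WT replicate 2 was thus the low library, and WT replicate 1 lay between the K823R libraries. In 2 of the 12 both K823R libraries exceeded both WT libraries, and in 1 both were below (beside 19.4% and 14.6% of all genes). Tubb4a, a neuronal and glial beta-tubulin, stood at 486 and 466 TPM in K823R and at 456 and 391.7 TPM in WT (log2 difference 0.17, SE 0.10). Tubb6, a beta-tubulin made in many tissues, stood at 13.2 and 14.6 TPM in K823R and at 18.2 and 14.95 TPM in WT (log2 difference -0.23, SE 0.13). Neither overlapped between groups, in opposite directions (limma adjusted p = 0.918 for both).

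Libraries also differed within a genotype. WT replicate 2 was the lowest of the 4 libraries for 28 of the 49 tested members (57.1%), beside 35.7% of all genes, and K823R replicate 1 was the highest for 20 (40.8%), beside 33.1%. The members' median deviation from their gene means was 0.04 and -0.02 in K823R and 0.03 and -0.07 in WT. Over all genes tested it had the same sign in each library, at 0.03 and -0.01 in K823R and 0.01 and -0.04 in WT. Sensory neuron markers deviated by 0.05 and -0.01 in K823R and by 0.09 and -0.11 in WT, and tubulins by -0.18 in WT replicate 2. Without WT replicate 2 the median log2 difference of the members was 0.000081, beside -0.0022 for all genes, and without WT replicate 1 it was 0.079, beside 0.050 for all genes. All members together held 0.825% and 0.798% of the TPM in K823R and 0.825% and 0.762% in WT. The part of neuron content in these shifts was not tested.

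**Figure D5:**
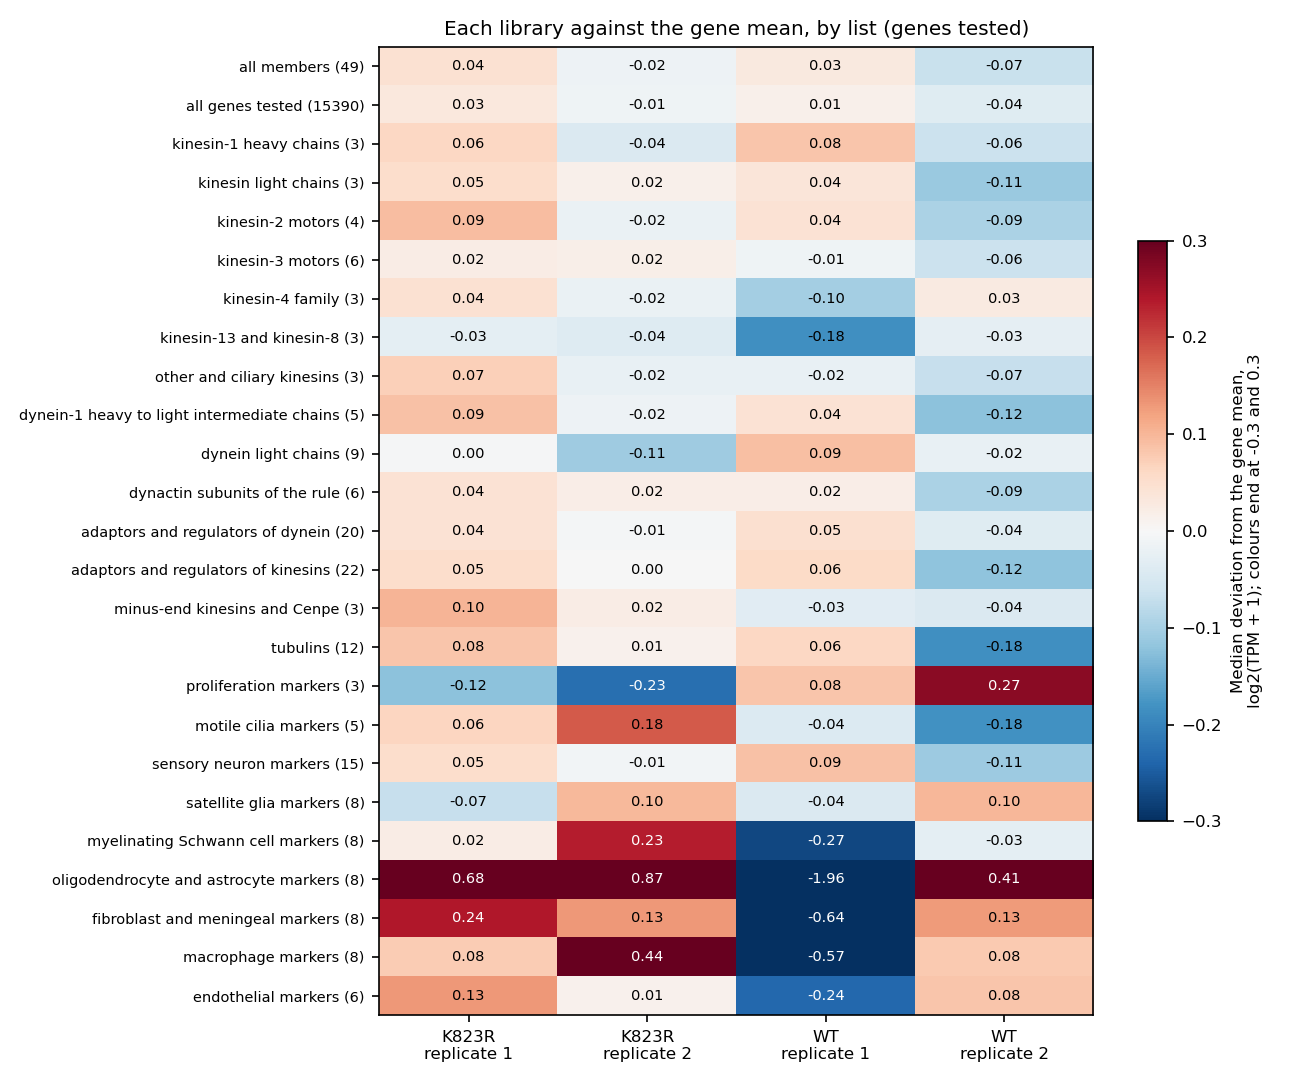
Median deviation of each library from the gene mean, in log2(TPM + 1), for the tested genes of each list, with the number of genes in brackets, K823R libraries on the left and WT on the right. WT replicate 2 is low for most motor classes, for tubulins and for sensory neuron markers, and WT replicate 1 is low for markers of central glia, fibroblasts and macrophages.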

How the data were processed

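RNA of 4 libraries was analysed, grouped by title and genotype label. Per the labels' protocols, mRNA was copied with random hexamers and sequenced as paired reads. Tools named in the submitters' processing notes, with no roles, are fastp 0.19.5, HISAT2, RSEM and edgeR, with the build GRCm38.p6; which annotation, filters or strand setting were used is not stated there. Values in the deposited table are TPM made by the authors, scaled to one total per library, so depth is unknown and a rise in one abundant transcript lowers the others.

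Here limma 3.58.1 (R 4.3.3) with a variance trend was fitted to log2(TPM + 1) for 15390 genes whose mean was 1 TPM or more, two-sided, Benjamini-Hochberg adjusted at 0.05, with 2 residual and 2.67 prior degrees of freedom. Differences on this scale understate the change of low genes. It was checked on simulated data with spreads shuffled among genes, where many large changes planted in genes at 10 TPM or more were not called. Members and gene lists were chosen with earlier results of these data known. Described with values in every library were the subunits of the main transport complexes and members with the 6 smallest p in each direction, 30 in all, and outside the members up to 2 genes with the smallest p in each pathway list; Kif17, Kif21a, Kif2a, Kif22, Kif11, Kif4, Kif18b, Kif20b, Dynlt1a and Dynlt1-ps1 were added after their values were seen. Alternatives were another pseudocount, other filters, no variance trend, a replicate block, other scalings and leaving out each library; the summed Dynlt1 level and its alternatives were chosen after seeing the data. Copies were searched with BLAST 2.17.0 and coding regions read from GENCODE M21; 21 members share exon bases with another gene. Plots used matplotlib 3.10.9.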

Additional observations from a re-analysis of the deposited data

How the results depend on the processing

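By limma 0 members passed at an adjusted p under 0.05 in each of the 11 alternatives. Members with an unadjusted p under 0.05 numbered 1 in the fit as reported, 2 with a replicate block, 0 with no variance trend, and 0 to 5 when 1 library was left out (5 without WT replicate 1). The labels do not say whether the replicate numbers pair libraries. Deviations of same-numbered libraries had a correlation of 0.050, which with 2 libraries a group is one value for both numbers. It cannot show whether the libraries were paired. The block changed no other call among the members. Of 330 values of the 30 described members under the alternatives, 301 kept their direction and 29 did not, and 16 members kept it in every alternative. With median-of-ratios scaling the log2 difference was -0.0095 for Dctn3, -0.00031 for Dync1i1, -0.024 for Kif1b and -0.016 for Kif3b, and the all-gene median moved to 0.0034. With quantile normalization it was -0.00026 for Dync1i1, 0.0078 for Dynlrb1, -0.012 for Kif1b and -0.022 for Kif3b. Leaving out each library gave ranges that cross 0: Dctn3 -0.067 to 0.099, Dctn4 -0.0020 to 0.11, Dctn6 -0.19 to 0.018, Dync1h1 -0.053 to 0.24, Dync1i1 -0.086 to 0.14, Dynll1 -0.21 to 0.0062, Dynlrb1 -0.035 to 0.028, Kif1b -0.053 to 0.055, Kif24 -1.25 to 0.19, Kif3b -0.063 to 0.079, Kif3c -0.049 to 0.16, Kif5a -0.066 to 0.14, Kif5c -0.026 to 0.077 and Klc1 -0.0092 to 0.15. The same ranges for medians were -0.0025 to 0.079 for all members, -0.066 to 0.077 for kinesin-1 heavy chains and -0.0058 to 0.15 for kinesin light chains. They were -0.011 to 0.15 for kinesin-2, 0.023 to 0.065 for kinesin-3 and -0.029 to 0.065 for the kinesin-4 family. For kinesin-13 and kinesin-8 the range was -0.071 to 0.19, and for other and ciliary kinesins 0.023 to 0.14. For dynein-1 it was 0.0020 to 0.14, for dynein-2 -0.14 to 0.075 and for dynactin 0.016 to 0.12. Dynein light chains gave -0.18 to -0.026, and the summed Dynlt1 log2 ratio ran from -0.53 to -0.20. Where a lone library was left in a group it was assumed to vary like the other group. The cause of these shifts was not tested. TPM gives no depth, so no floor is given.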
